A study of Mus musculus with 3 samples.

Results

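Müller glia that were not dividing made up 1866 of the 29084 cells kept from 3 single-cell RNA-sequencing (scRNA-seq) libraries of the mouse retina at postnatal day 6 (P6), out of 33528 cell barcodes in all. A cell was kept with at least 1000 unique molecular identifiers (UMIs, each a tag of 1 captured RNA molecule) and at most 15% mitochondrial UMIs. It counted as a Müller glial cell when *Rlbp1*, *Glul*, *Slc1a3*, *Dkk3*, *Car14*, *Crym* and *Clu* together reached at least 20 of every 10000 UMIs, with at least 4 of the 7 genes detected and *Slc1a3* among them. Cells were left out when the cell cycle genes *Top2a*, *Mki67*, *Cenpf*, *Nusap1* and *Birc5* reached 3 per 10000, or when astrocyte (*Gfap*, *Pax2*, *Pdgfra*), endothelial (*Cdh5*, *Pecam1*, *Egfl7*) or myeloid genes (*Cx3cr1*, *C1qa*, *Csf1r*) reached 5 per 10000. The cells were therefore chosen by their measured RNA, and the levels of these genes describe the choice and are no finding.

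The study asked how loss of Norrin/β-catenin signaling changes the retinal vasculature. One library each came from the wild type (WT), from the *Tspan12* knockout (*Tspan12* KO), which lacks a co-receptor subunit for Norrin, with no cell type driver named, and from the *Ctnnb1* conditional knockout (*Ctnnb1* cKO), in which floxed β-catenin was deleted by tamoxifen-induced *Pdgfb*-iCreER. That driver acts in endothelial cells (ECs), so the Müller glia of the *Ctnnb1* cKO were not the targeted cells. Whether the other groups received tamoxifen is not given in the sources used here. All mice had a C57BL/6 background, each library pooled the retinas of several P6 mice of 1 genotype, and WT pups came from other litters than the mutant pups. ECs and microglia were enriched with CD31 and CD11b beads before capture, so the Müller glia in these libraries are cells carried through that enrichment, and their share of a library is set by it. With 1 library per genotype there was no replicate. The intervals below are exact 95% intervals that cover counting error only, and no difference between genotypes could be tested. Where 3 values of a measure follow each other, they are those of WT, *Tspan12* KO and *Ctnnb1* cKO, in that order.

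Müller glia are the radial glia of the retina and span it from the inner limiting membrane to the photoreceptors. They arise last from the progenitors that also give rods and bipolar cells, and around the end of the first postnatal week they leave the cell cycle and begin to mature. They take up glutamate and recycle retinoid, buffer potassium and water, hold the retinal layers together, and make Norrin and vascular endothelial growth factor for the growing vessels. Notch signaling and the Id proteins hold such cells in the glial and progenitor state and restrain neurogenic factors.

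The WT library held 837 Müller glia among 9378 kept cells (8.93%, 8.36 to 9.52), the *Tspan12* KO library 954 among 11585 (8.23%, 7.74 to 8.75) and the *Ctnnb1* cKO library 75 among 8121 (0.924%, 0.727 to 1.16). Without endothelial and myeloid cells in the denominator the shares were 10.1%, 9.17% and 3.89%. The median Müller glial cell had 6556, 5716.5 and 2926 UMIs, and the cells summed to 6662415, 9097003 and 289981 UMIs. In counts per 1000000 UMIs (CPM) of those sums, 1 UMI was thus worth 0.15, 0.11 and 3.45 CPM, so the *Ctnnb1* cKO values carry the widest counting error. Just inside the marker limit, at 20 to 25 per 10000, lay 88, 144 and 14 cells, and just outside it, at 15 to 20, lay 87, 217 and 30. Exactly 4 markers were detected in 26.0%, 26.6% and 54.7% of the cells. Of the kept cells that met the marker limit, 51 in the *Ctnnb1* cKO library reached the myeloid limit, against 7 in each of the others. Cells that also failed another limit are included. No cell barcode was shared among the Müller glia of the libraries, although 37 barcodes were shared between all barcodes of WT and *Tspan12* KO, 36 between *Tspan12* KO and *Ctnnb1* cKO, and 21 between WT and *Ctnnb1* cKO.

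Identity genes that the choice of Müller glia had not used were compared with rods. *Apoe*, which carries lipid from glia to neurons, was at 2338, 1594 and 2031 CPM in Müller glia, against 478, 422 and 956 in the rods of the same libraries. Rods were taken as cells with at least 4 of 7 rod genes, those summing to at least 40 per 10000, and served as cells that should lack glial genes. They were also held below the Müller marker limit and the limits on cell cycle, astrocyte, endothelial and myeloid genes. Their low level of other glial genes may in part follow from that choice. *Sox9*, a transcription factor that gliogenesis needs, was at 550, 356 and 466 CPM in Müller glia and at 41.9, 87.0 and 103 CPM in rods. *Vim*, the intermediate filament of radial glia, reached 745, 492 and 562 CPM, and *Sox2*, which keeps progenitors and Müller glia undifferentiated, 303, 180 and 179 CPM. With every cell thinned to 1000 UMIs, *Sox9* was seen in 39.9%, 30.5% and 29.3% of Müller glia, against 2.15%, 4.78% and 7.01% of rods, and without thinning in 86.1%, 78.5% and 64.0% of Müller glia. The median rod had 4496, 6205 and 4368 UMIs. Each of these genes thus stood above the level in rods in all 3 libraries, which is no independent check of the label.

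Some genes of the mature cell were near absent. *Aqp4*, the water channel of Müller end-feet, had 1 UMI among all WT Müller glia, 10 in *Tspan12* KO and none in *Ctnnb1* cKO, where a count of 0 was read as allowing up to 3 UMIs, or 10.3 CPM. *Rgr*, a retinoid-binding opsin of mature Müller glia, was at 0.450 CPM in WT and 0.550 CPM in *Tspan12* KO. *Kcnj10*, the potassium channel Kir4.1, was already present at 31.1 CPM (27.0 to 35.6), 21.2 (18.3 to 24.4) and 51.7 (28.9 to 85.3). *Clu*, though 1 of the 7 marker genes, was found in only 2.75%, 6.71% and 6.67% of the cells. Progenitor genes ran beside the glial ones. *Ccnd1*, the cyclin of dividing progenitors, was at 1323, 912 and 1138 CPM, and the gliogenic factor gene *Nfib* at 1038, 1069 and 817 CPM. Glial and late progenitor genes were thus found in the same set of cells, where *Aqp4* and *Rgr* were near absent and *Kcnj10* was present. The comparison is with rods chosen to be low in marker genes, and it cannot separate Müller glia from late progenitors.

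**Figure D1:**
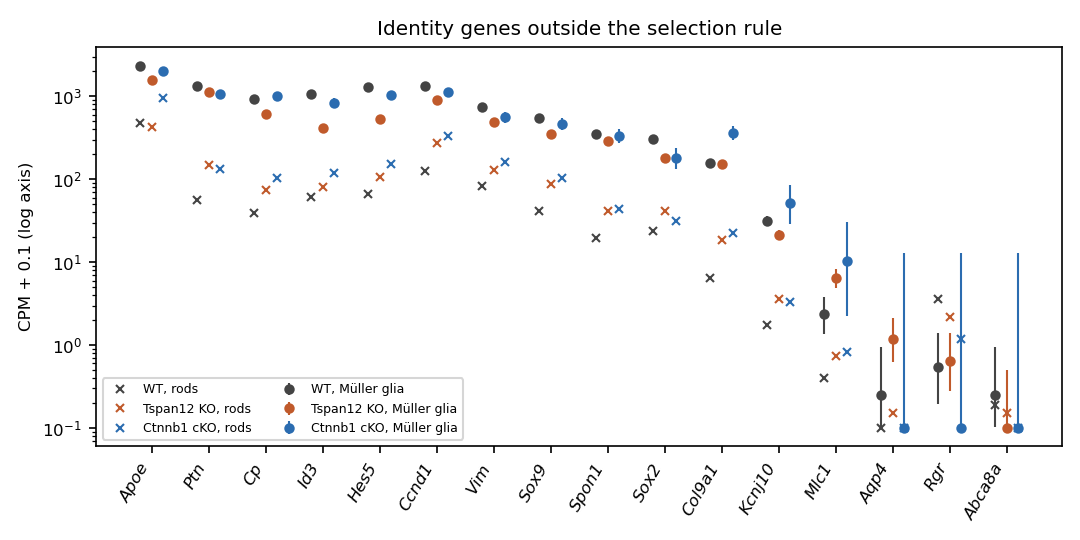
Identity genes that the choice of cells had not used, in CPM plus 0.1 on a log axis, for Müller glia (circles with exact Poisson 95% intervals) and rods (crosses) of each library. *Apoe* to *Kcnj10* lie above the rods of the same library in all 3 libraries, while *Aqp4*, *Rgr* and *Abca8a* lie near 0.

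Beyond the identity lists, the genes furthest above rods in all 3 libraries came from several groups. *Mir99ahg*, a long RNA that hosts microRNAs, was at 1017 CPM in WT Müller glia and 41.2 in WT rods. *Cp*, which encodes ceruloplasmin, the ferroxidase of iron export, was at 918 against 38.9 CPM, and *Ptn*, which encodes the growth factor pleiotrophin, at 1346 against 55.5 CPM. *Trpm3*, a cation channel gene, was at 1390 against 69.4 CPM. Others of the 15 leading genes were *Sntb1*, *Sulf1*, *Col9a1*, *Col23a1*, *Pard3b* and *Plce1*, with roles at the membrane, in the matrix and in cell polarity. Against the dividing cells that met the same marker limit (211, 162 and 20 cells), the genes furthest below were those of chromatin and mitosis, such as the linker histone gene *H1f5* at 26.4 against 962 CPM and the spindle gene *Prc1* at 23.7 against 546 CPM in WT. Those furthest above were genes of maturing neurons, such as *Car10*, *Kcnip4* and *Grik1*, and they were higher in *Tspan12* KO than in WT Müller glia, with *Kcnip4* at 114 CPM in WT and 420 in *Tspan12* KO.

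A subset of the cells carried much photoreceptor and neuronal RNA besides the glial genes. Rod, cone, bipolar and amacrine genes, 42 in all, summed to more than 50 per 10000 in 58 WT cells (6.93%, 5.30 to 8.87), 243 *Tspan12* KO cells (25.5%, 22.7 to 28.4) and 20 *Ctnnb1* cKO cells (26.7%, 17.1 to 38.1). *Pdc*, which encodes the photoreceptor protein phosducin, was at 1531 CPM in these neuron-rich cells and 111 in the other WT Müller glia, at 1665 against 319 in *Tspan12* KO and at 1055 against 87.0 in *Ctnnb1* cKO. As a rod gene *Pdc* was used in this split, so its levels describe the split and are no finding. The neuron-rich cells were lower in glial genes in turn, with *Hes5* at 417 against 1427 CPM in WT and 337 against 683 in *Tspan12* KO. They were also the larger cells, with medians of 11630.5 against 6392 UMIs, 10621 against 4928 and 5150 against 2603. The Scrublet doublet score placed 91.4% of the neuron-rich WT cells, 58.0% of those in *Tspan12* KO and 5% of those in *Ctnnb1* cKO in the top share of the library that doublets would fill, against 8.09%, 14.1% and 0% of the other Müller glia. No cell was removed as a doublet, and how many of these barcodes held a glial and a photoreceptor cell together was not tested. Because these cells were more frequent in both mutant libraries, the counts and medians of gene lists below are also given for the 779, 711 and 55 Müller glia without them, here called neuron-poor.

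**Figure D2:**
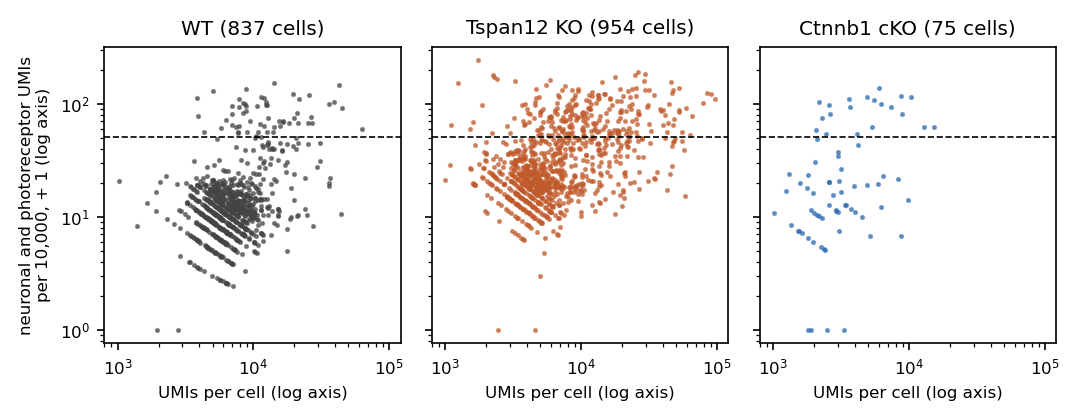
UMIs per Müller glial cell (x axis, log) against rod, cone, bipolar and amacrine UMIs per 10000 plus 1 (y axis, log), 1 point per cell, with a dashed line at 50 per 10000. Above the line lie 6.93%, 25.5% and 26.7% of the cells of the 3 libraries, most of them to the right of the main cloud in WT and *Tspan12* KO.

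The neuron-poor Müller glia were themselves uneven in 2 ways, looked for after the data had been seen. S-phase genes, such as those for the replication clamp PCNA and the MCM helicase, summed to at least 10 per 10000 in 142 WT cells (18.2%, 15.6 to 21.1), 71 *Tspan12* KO cells (9.99%, 7.88 to 12.4) and 4 *Ctnnb1* cKO cells (7.27%, 2.02 to 17.6). These cells had passed the limit on mitotic genes. Their progenitor genes were higher in both larger libraries. *Ccnd1* was at 2471 CPM in the S-phase-high cells and 1248 in the others in WT, and at 2579.9 against 1010.4 in *Tspan12* KO. *Sfrp2*, a secreted Wnt inhibitor of retinal progenitors, was at 80.6 against 16.2 CPM in WT and 68.2 against 16.0 in *Tspan12* KO, and *Fgf15*, another progenitor gene, at 57.7 against 14.4 and 53.0 against 12.6. Genes of later glia ran the other way, with *Apoe* at 1388 against 2655 CPM in WT (log2 ratio −0.94, −1.02 to −0.85) and the carbonic anhydrase gene *Car14* at 52.3 against 118. *Sox9* (−0.04, −0.18 to 0.09) and *Hes5* (−0.04, −0.13 to 0.04) were nearly level between the WT cells.

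The other axis was neurogenic. *Neurog2*, *Hes6*, *Dll1* and *Dll3*, genes of precursors about to form neurons and of the ligands they present, summed to at least 10 per 10000 in 132 WT cells (16.9%, 14.4 to 19.8), 75 *Tspan12* KO cells (10.5%, 8.39 to 13.0) and 9 *Ctnnb1* cKO cells (16.4%, 7.77 to 28.8). *Olig2*, a factor of late neurogenic progenitors, was at 36.0 CPM in these cells and 2.62 in the others in WT (3.78, 2.8 to 4.84), and at 42.5 against 4.83 in *Tspan12* KO (3.13, 2.14 to 4.10). *Cdkn1c*, an inhibitor of cell division, was at 169 against 48.4 CPM in WT and 155 against 48.6 in *Tspan12* KO. *Sox4*, a gene of neuronal precursors, was at 2043 against 875 CPM in WT and 1971 against 1079 in *Tspan12* KO. The matrix genes *Col9a1* and *Spon1* were lower in the neurogenic-high cells, *Col9a1* at 94.9 against 183 CPM in WT and 82.4 against 199 in *Tspan12* KO. *Hes5* was nearly level along this axis in WT, at 1394 against 1432 CPM (−0.04, −0.13 to 0.05).

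**Figure D3:**
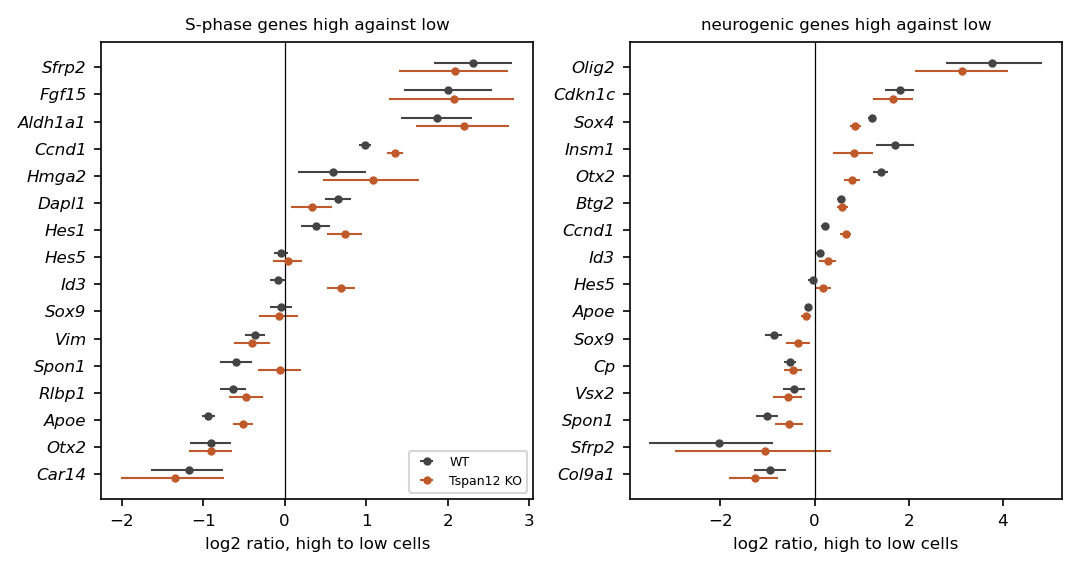
Log2 ratio of CPM between neuron-poor Müller glia that are high and low in S-phase genes (left) and in neurogenic genes (right), in WT (dark) and *Tspan12* KO (orange), with exact 95% counting intervals. *Sfrp2*, *Fgf15*, *Aldh1a1* and *Ccnd1* lie to the right on the left panel and *Olig2* and *Cdkn1c* on the right panel, in both libraries.

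The targeted genes were weak checks of these labels. *Tspan12* was at 16.5 CPM (13.6 to 19.9), 12.1 (9.94 to 14.6) and 17.2 (5.60 to 40.2) in Müller glia, a log2 ratio of −0.45 (−0.84 to −0.05) in *Tspan12* KO. The libraries count 3′ ends of transcripts, and RNA that carries a deletion elsewhere can still be counted, so this level does not check the knockout. *Ctnnb1* was at 160, 158 and 121 CPM (−0.40, −0.93 to 0.08 in *Ctnnb1* cKO), in cells that the endothelial driver does not target.

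In *Tspan12* KO Müller glia several genes of Notch signaling and of the Id proteins were lower. Among the 12724 genes with at least 50 UMIs over the 3 libraries, 65 (0.511%) were at least 2-fold lower and 271 (2.13%) at least 2-fold higher, counted on log2 of CPM plus 5. In neuron-poor cells 46 (0.362%) were lower and 194 (1.52%) higher. Of the 16 Notch and Id genes, 4 were at least 2-fold lower and none higher, 14 lay below 0, and the median was −0.31, beside a median of 0.01 over all genes tested. In neuron-poor cells 2 of the 16 were at least 2-fold lower, with a median of −0.20. The dividing cells showed 2 of the 16 at least 2-fold lower with a median of −0.0073, and rods a median of 0.33.

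*Hes5* encodes the main Hes repressor through which Notch blocks proneural genes in Müller glia. It was at 1294 CPM (1267 to 1322), 533 (519 to 549) and 1045 (930 to 1169), a log2 ratio of −1.28 (−1.33 to −1.23) in *Tspan12* KO. In neuron-poor cells it was at 1427 against 683 CPM (−1.06, −1.12 to −1.0). The dividing cells of the same marker limit showed 932 against 457 CPM, and rods went the other way, from 65.5 to 106. With cells thinned to 1000 UMIs, *Hes5* was seen in 53.4% (50 to 56.8) of WT and 38.7% (35.6 to 41.9) of *Tspan12* KO Müller glia, and in 4.30% and 6.54% of rods. Without thinning it was seen in 82.3% and 76.6% of Müller glia. The 5 highest cells held 3.97% and 4.45% of its UMIs, so neither level rested on a few cells.

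*Id3* encodes a dominant-negative partner of proneural factors that BMP signals induce. It was at 1053 CPM (1028 to 1078), 413 (400 to 426) and 835 (733 to 947), a log2 ratio of −1.35 (−1.41 to −1.29) in *Tspan12* KO, with −1.10 (−1.16 to −1.03) in neuron-poor cells. Its relative *Id4* was at 60.6, 22.3 and 20.7 CPM (−1.44, −1.69 to −1.20) and *Id1* at 436, 258 and 183 CPM (−0.76, −0.84 to −0.68). *Lfng*, the fringe glycosyltransferase that tunes which ligand Notch hears, was at 99.1, 44.4 and 41.4 CPM (−1.16, −1.34 to −0.98). All 4 of these genes were lower in *Tspan12* KO by more than their counting intervals, also in neuron-poor cells. *Heyl*, another Notch target, was at 55.7 CPM in WT and 31.4 in *Tspan12* KO (−0.82, −1.05 to −0.60), and *Nrarp*, a feedback inhibitor of Notch, at 105 and 70.8 (−0.57, −0.72 to −0.41). The receptor gene *Notch1* was at 345 and 323 CPM (−0.09, −0.17 to −0.02), and *Hes1*, the other Hes gene of these cells, at 263 and 243 (−0.11, −0.20 to −0.02), with 0.15 (0.06 to 0.25) in neuron-poor cells. The lower levels thus covered *Hes5*, *Lfng*, *Heyl* and *Nrarp* among the Notch genes, and did not extend to *Notch1* or *Hes1* at that size.

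**Figure D4:**
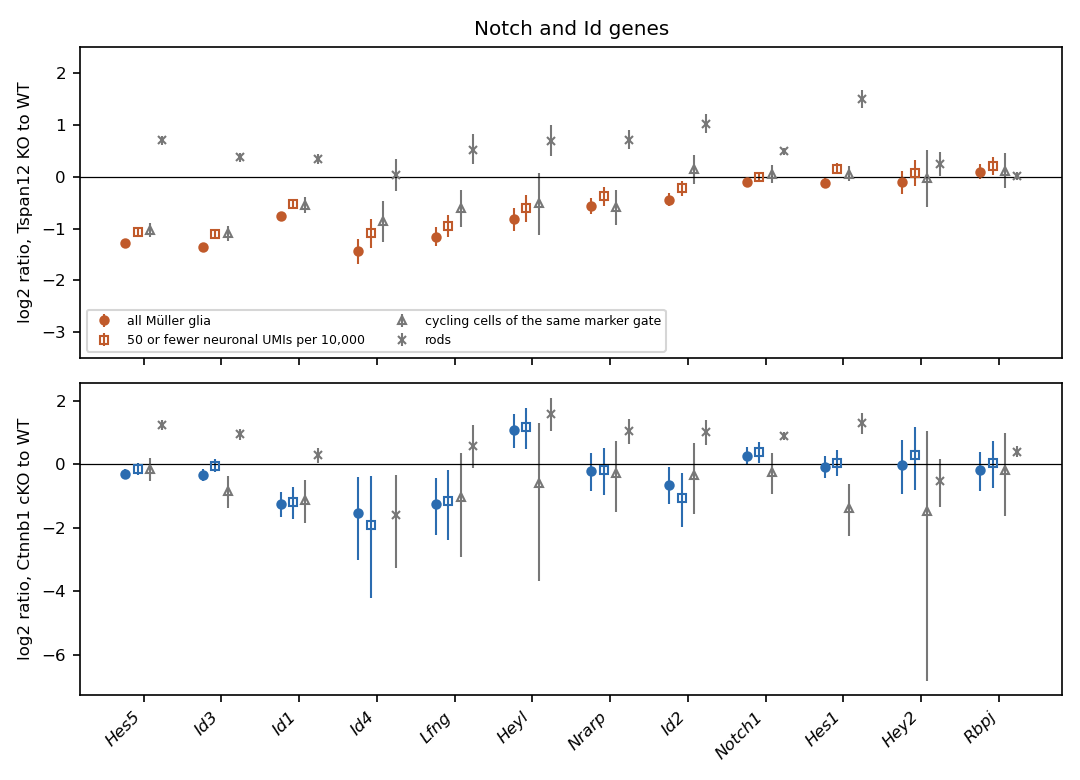
Log2 ratio of CPM to WT for 12 Notch and Id genes in *Tspan12* KO (top) and *Ctnnb1* cKO (bottom), with exact 95% counting intervals, for Müller glia (circles), neuron-poor Müller glia (squares), dividing cells of the same marker limit (triangles) and rods (crosses). In the top panel *Hes5* and *Id3* lie near −1 or below in the 3 glial groups and above 0 in rods, and *Notch1* and *Hes1* lie near 0 in the glial groups. *Id4* of the dividing *Ctnnb1* cKO cells, with 0 UMIs, is not drawn.

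Promoters of 2 of these genes are printed because Notch acts on DNA through the factor RBPJ, whose motif letters they hold. The sequences are from RefSeq on mouse build GRCm38.p6, run from 250 bases before to 50 after the gene start on the plus strand, and capitals mark GTGGGAA read on either strand. *Hes5* (chr4:154960673-154960972) held 2 matches, starting 226 and 83 bases before the gene start, and *Lfng* (chr5:140607091-140607390) held 1, at 109 bases before it.
Hes5 promoter: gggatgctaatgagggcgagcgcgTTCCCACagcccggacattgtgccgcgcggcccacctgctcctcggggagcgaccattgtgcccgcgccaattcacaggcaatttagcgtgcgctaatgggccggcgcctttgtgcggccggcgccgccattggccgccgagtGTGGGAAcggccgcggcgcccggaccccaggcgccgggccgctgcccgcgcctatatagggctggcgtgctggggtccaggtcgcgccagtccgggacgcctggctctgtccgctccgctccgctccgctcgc
Lfng promoter: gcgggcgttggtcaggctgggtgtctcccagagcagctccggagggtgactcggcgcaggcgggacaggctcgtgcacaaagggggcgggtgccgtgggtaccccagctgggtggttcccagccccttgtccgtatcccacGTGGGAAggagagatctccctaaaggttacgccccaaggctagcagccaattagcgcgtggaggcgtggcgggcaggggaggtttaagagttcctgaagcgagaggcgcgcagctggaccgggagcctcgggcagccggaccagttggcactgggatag
The letters occurred in 2097 of 32851 RefSeq promoters of that length (6.38%), and in none of the promoters of *Id3* and *Id4*, which says only that they are not in those windows. A match describes the sequence and does not show that a factor was bound in these cells. Only *Hes5*, *Lfng*, *Id3* and *Id4* were looked up by name, and not *Heyl*, *Nrarp* or *Hes1*.

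Identity and progenitor genes of *Tspan12* KO Müller glia were mostly a little lower. Of the 27 tested of 30 identity genes outside the choice, 19 lay below 0 and 1, *Id3*, was at least 2-fold lower, with a median of −0.30 and of −0.08 in neuron-poor cells. *Sox9* had a log2 ratio of −0.63 (−0.70 to −0.56) over all cells and −0.45 (−0.52 to −0.37) in neuron-poor cells, *Sox2* −0.75 (−0.84 to −0.65) and −0.52 (−0.63 to −0.42), and *Vim* −0.60 (−0.66 to −0.54) and −0.43 (−0.50 to −0.37). *Apoe* was at −0.55 (−0.59 to −0.52) and −0.34 (−0.38 to −0.30), and in the dividing cells at 0.27. Of 23 progenitor and gliogenic factor genes, 18 lay below 0 and none passed 2-fold, with a median of −0.34 and of −0.18 without the neuron-rich cells. Glial reactivity genes, 18 of 32 tested, had a median of −0.43, and of −0.19 in neuron-poor cells, and none passed 2-fold in either direction in either set of cells. *Stat3*, the transcription factor of gliosis, was at 231 CPM in WT and 139 in *Tspan12* KO (−0.73, −0.84 to −0.62).

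S-phase genes were lower as a group. Of 19 tested, 17 lay below 0 and 2, *Mcm6* and *Hells*, were at least 2-fold lower, with a median of −0.67. In neuron-poor cells all 19 lay below 0 and the median was −0.58, against −0.29 in the dividing cells and 0.08 in rods. *Pcna*, the replication clamp gene, was at 88.9 CPM (81.8 to 96.3), 49.5 (45 to 54.3) and 41.4 (21.4 to 72.3). The helicase subunit gene *Mcm6* was at 43.8, 18.1 and 24.1 CPM (−1.27, −1.56 to −0.99 in *Tspan12* KO), and *Hells*, a chromatin remodeler of replication, at 33.2, 13.3 and 13.8. The choice of cells had already removed those rich in mitotic genes, so these levels concern the cells that remained.

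Immediate early genes, which many cells switch on within minutes of stress or dissociation, were uneven. Of 18 tested, 5 were at least 2-fold lower in *Tspan12* KO (*Egr2*, *Atf3*, *Nr4a1*, *Klf2* and *Klf4*) and 1, *Dusp1*, was higher, with a median of −0.19. In neuron-poor cells 2 of the 5, *Nr4a1* and *Klf4*, were still at least 2-fold lower, *Dusp1* was still higher, and the median was −0.05. *Klf2* and *Klf4* are also genes of endothelial cells. Endothelial genes outside the choice lay below 0 in 6 of 7 tested in *Tspan12* KO, with a median of −0.47 and of −0.45 in rods, and summed to 7.17 per 10000 in WT and 5.09 in *Tspan12* KO, and microglial genes lay below 0 in 9 of 9, with none of either list at 0 UMIs in these 2 libraries. Their part in the immediate early values was not tested. *Atf3* was at 107, 46.1 and 34.5 CPM, and *Klf4* at 56.3, 23.4 and 17.2. *Dusp1*, a phosphatase that dampens MAP kinases, was at 86.8 CPM (79.8 to 94.1), 181 (173 to 190) and 159 (116 to 212), a log2 ratio of 1.06 (0.93 to 1.20) in *Tspan12* KO and 1.14 (0.98 to 1.29) in neuron-poor cells. *Fos*, the best known gene of the group, was nearly level at 2494, 2194 and 2348 CPM. *Eno1*, a glycolytic enzyme gene, was the only 1 of 17 glycolysis genes past 2-fold, also in neuron-poor cells, at 726, 281 and 690 CPM. Its copy *Eno1b* is nearly identical, with 175, 181 and 7 UMIs in the 3 libraries, and how the counting shared reads between them is not given in the sources used here, so the *Eno1* value is uncertain.

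Genes higher in *Tspan12* KO Müller glia were foremost those of rods. Of 13 tested rod genes, 11 were at least 2-fold higher and none lower, with a median of 1.48, and in neuron-poor cells 10, with a median of 1.22. *Pdc* was at 298, 902 and 479 CPM in Müller glia, while in rods it was at 3484, 3123 and 1688. *Otx2*, a factor of photoreceptor and bipolar fate, was at 331, 742 and 376 CPM in Müller glia (1.16, 1.10 to 1.23 in *Tspan12* KO) and nearly level in rods at 1226, 1236 and 1042. Bipolar genes were higher in 5 of 7 tested and lower in none, with a median of 1.19, and in neuron-poor cells higher in 2, *Grm6* and *Isl1*, with a median of 0.92. Glial RNA was also higher in rods of that library, with *Rlbp1* at 30.4 CPM in WT rods and 108 in *Tspan12* KO rods. *Rlbp1* is a marker gene, and rods were held below the marker limit, so its level in rods was capped by the choice. Of the 27 tested identity genes outside the choice, 24 were higher and 3 lower in *Tspan12* KO rods than in WT rods, with a median of 0.66. The part of RNA shared between barcodes in these differences was not tested.

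Some transporter and carrier genes stood higher as well. *Slc1a2*, the glutamate transporter GLT-1, was at 112 CPM (104 to 121), 278 (268 to 289) and 145 (104 to 196), with a log2 ratio of 1.31 (1.19 to 1.43) and of 1.26 (1.10 to 1.42) in neuron-poor cells. *Fabp7*, a fatty acid carrier of radial glia, was at 502, 1079 and 631 CPM (1.10, 1.05 to 1.16) and *Slc6a9*, a glycine transporter gene, at 9.61, 27.7 and 34.5. All 3 genes were at higher levels in rods than in Müller glia, *Slc1a2* at 582 and 556 CPM and *Fabp7* at 1693 and 1552 CPM in WT and *Tspan12* KO rods, where they were nearly level. *Cryab*, a small heat shock protein gene that rods hardly carried (2.97 CPM in WT), was at 27.9, 58.2 and 51.7 CPM in Müller glia, with 1.03 (0.76 to 1.31) in neuron-poor *Tspan12* KO cells. *Crabp1*, a retinoic acid carrier, was at 24.2, 43.4 and 6.90 CPM.

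Signals from Müller glia to vessels were mostly near the WT level in *Tspan12* KO. *Vegfa*, the growth factor that oxygen-starved glia send to vessels, was at 86.0 CPM (79.1 to 93.3), 101 (94.7 to 108) and 89.7 (58.6 to 131), a log2 ratio of 0.23 (0.08 to 0.39) and of 0.38 (0.21 to 0.56) in neuron-poor cells of *Tspan12* KO. *Ndp*, the gene of Norrin itself, was at 19.2 CPM (16.0 to 22.8), 16.4 (13.8 to 19.2) and 10.3 (2.13 to 30.2), and at 0.959, 2.04 and 1.44 CPM in rods. Its level was thus higher in the glia than in rods in each library, though in *Ctnnb1* cKO on only 3 glial UMIs. Its log2 ratio in *Tspan12* KO was −0.23 (−0.58 to 0.12), an interval that contains 0. Hypoxia response genes lay above 0 in 16 of 23 tested, with a median of 0.23 and of 0.31 in neuron-poor cells, but only *Ndrg1* passed 2-fold, at 195 CPM in WT and 429 in *Tspan12* KO, and in neuron-poor cells it did not, at 157 against 292 CPM (0.90, 0.78 to 1.02). Rods showed a like median of 0.28 over the same genes. None of the 20 tested genes of Norrin and Wnt ligands, receptors and readouts passed 2-fold, with a median of −0.17, nor did any of the 18 tested vessel growth and guidance genes, with a median of −0.13 that was 0.03 in neuron-poor cells. *Wnt5b* came closest in the former group, at 29.0 against 53.4 CPM, and reached 1.18 (0.91 to 1.47) in neuron-poor cells.

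In *Ctnnb1* cKO Müller glia 628 genes (4.94%) were at least 2-fold higher and 1180 (9.27%) at least 2-fold lower than in WT. In neuron-poor cells, 55 in this library, 757 (5.95%) were higher and 1843 (14.5%) lower. The median over all genes tested was −0.08, and −0.14 in neuron-poor cells. These shares and medians are the background of the *Ctnnb1* cKO lists below. In counts simulated at the depth of all 75 cells, 4.97% of unchanged genes passed 2-fold in either direction. At the depth of *Tspan12* KO 0% did. Of the tested genes, 825 had no UMI in *Ctnnb1* cKO. The part of sparse counting in these numbers was not tested. With 75 cells, single genes are read below by their intervals. Scaling by trimmed means (TMM) shifted all *Ctnnb1* cKO log2 ratios by −0.11, and those of *Tspan12* KO by 0.03.

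Part of the difference lay in 4 of the 75 cells. These 4 cells, set apart after the data had been seen by at least 3 UMIs of *Crhbp* and *Optc*, held 23987 UMIs, or 8.27% of the library's Müller glial UMIs. They carried 107 of its 109 UMIs of *Crhbp*, which encodes a binding protein of corticotropin-releasing hormone, 54 of 56 of *Optc*, which encodes the vitreous protein opticin, and all 15 of *Bmp4*. No WT cell and 2 *Tspan12* KO cells met that limit. The 4 cells had no *Hes5* UMI, and 1 of them held the 3 *Sox9* and 1 the 3 *Rlbp1* UMIs found among them. They passed the marker limit with 40 of the library's 117 *Glul* UMIs, 18 *Dkk3* and 12 *Slc1a3* UMIs. These genes went against the Müller glial label, and the 4 cells are given no other name here. *Dapl1*, a progenitor gene, was at 302 CPM in WT and 1024 in *Ctnnb1* cKO with these cells, and at 590 without them (0.97, 0.72 to 1.20). *Col9a1* was at 159 and 362 CPM with them and at 173 without them (0.12, −0.34 to 0.55). *Glul*, the glutamine synthetase gene, was at 186 and 403 CPM with them and at 289 without them (0.64, 0.29 to 0.97). *Crhbp* and *Optc*, which were among the leading genes higher in *Ctnnb1* cKO alone, rested on them.

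*Hes5* and *Id3* were nearer to WT in *Ctnnb1* cKO than in *Tspan12* KO. *Hes5* had a log2 ratio of −0.31 (−0.48 to −0.14) over all *Ctnnb1* cKO cells, −0.18 (−0.35 to −0.02) without the 4 cells and −0.14 (−0.34 to 0.05) in neuron-poor cells. *Id3* had −0.34 (−0.53 to −0.15) over all cells and −0.05 (−0.26 to 0.16) in neuron-poor cells. *Id1*, *Id4* and *Lfng* were low in *Ctnnb1* cKO too, at −1.25 (−1.68 to −0.86), −1.55 (−3.01 to −0.42) and −1.26 (−2.22 to −0.44), the latter 2 on 6 and 12 UMIs. *Heyl* was higher instead, at 55.7 CPM in WT and 117 (81.2 to 164) in *Ctnnb1* cKO. Of the 16 Notch and Id genes, 3 were thus at least 2-fold lower and 1 higher, with a median of −0.23. In neuron-poor cells 4 were lower and 1 higher, with a median of −0.09. Over all genes tested 9.27% were at least 2-fold lower, with a median of −0.08, and in neuron-poor cells 14.5%, with a median of −0.14. The neuron-poor median of the list was thus not below that of all genes. Both mutant libraries were set against the same WT library, so a gene low in both is not seen independently.

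*Crym*, a thyroid hormone binding protein and 1 of the marker genes, was at 1624 CPM, 1305 and 697 (604 to 800), and at 748 without the 4 cells. Since it was used to choose the cells, this is a description. *Ldhb*, a lactate dehydrogenase gene, was at 280 CPM in WT and 121 (84.1 to 168) in *Ctnnb1* cKO (−1.21, −1.74 to −0.73) and *Bsg*, a partner of lactate carriers, at 572 and 276 (−1.05, −1.39 to −0.73). Of 17 glycolysis genes, 3 were at least 2-fold lower (*Ldhb*, *Slc16a1* and *Slc16a3*), also in neuron-poor cells, and none higher. Their median was −0.40, and −0.37 in neuron-poor cells. Over all genes tested 9.27% were at least 2-fold lower, with a median of −0.08. In neuron-poor cells the share was 14.5%, with a median of −0.14, so there 3 of 17 lay near the share of all genes. S-phase genes were at least 2-fold lower in 6 of 19, with a median of −0.50 and of −0.68 in neuron-poor cells, where 6 were lower as well.

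Interferon and antigen presentation genes were higher in *Ctnnb1* cKO. Of 8 tested of 17, 4 were at least 2-fold higher (*Ifitm3*, *Bst2* and *H2-K1* among them) and none lower, with a median of 1.23, and in neuron-poor cells 6, with a median of 1.67. *Ifitm3*, an antiviral membrane protein gene, was at 15.6 CPM (12.8 to 18.9), 4.18 (2.96 to 5.73) and 221 (170 to 282). Rods showed 13.5, 3.8 and 201 CPM, close to the Müller glial levels in each library. *H2-K1*, a class I major histocompatibility gene, was at 6.30, 6.60 and 89.7 CPM in Müller glia and at 4.80, 4.91 and 74.7 in rods. These levels moved together with myeloid RNA. Microglial and macrophage genes outside the choice were at least 2-fold higher in 7 of 9 tested, with a median of 1.94, and summed to 1.33, 0.789 and 6.14 per 10000 in the 3 libraries, with none of the 10 genes at 0. In rods 8 of the 9 were at least 2-fold higher, with a median of 2.33. *C1qa* was at 82.8 CPM in Müller glia and 81.5 in rods of *Ctnnb1* cKO. Both groups had been held under the same limit on the myeloid genes with *C1qa*, so these 2 levels describe the choice. The part of such shared RNA in the interferon values was not tested.

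Norrin and Wnt genes showed 3 at least 2-fold higher and none lower of 20 tested in *Ctnnb1* cKO, with a median of −0.11, and in neuron-poor cells the same 3, with a median of −0.02. *Axin2*, a readout of β-catenin signaling, was at 4.50, 5.83 and 20.7 CPM (7.59 to 45 for the last), on 6 UMIs. *Lef1*, a partner of β-catenin in the nucleus, was at 12.9, 8.90 and 37.9 CPM on 11 UMIs, and *Wnt5a* at 9.16, 7.70 and 24.1 on 7. Endothelial genes outside the choice were also at least 2-fold higher in 3 of 7 tested (*Emcn*, *Ramp2* and *Plvap*), with a median of 0.83 and of 1.32 in rods, summing to 7.17, 5.09 and 6.83 per 10000, and their part in the Wnt values was not tested. Vessel growth and guidance genes had a median of 0.36, with *Sparcl1* past 2-fold higher and *Fgf1* lower of 18 tested, and in neuron-poor cells 3 higher and 2 lower, with a median of 0.54. Rod genes were at least 2-fold higher in 9 of 13, with a median of 1.32 that dropped to 0.39 in neuron-poor cells, where 2 remained, among them *Pde6b*.

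**Figure D5:**
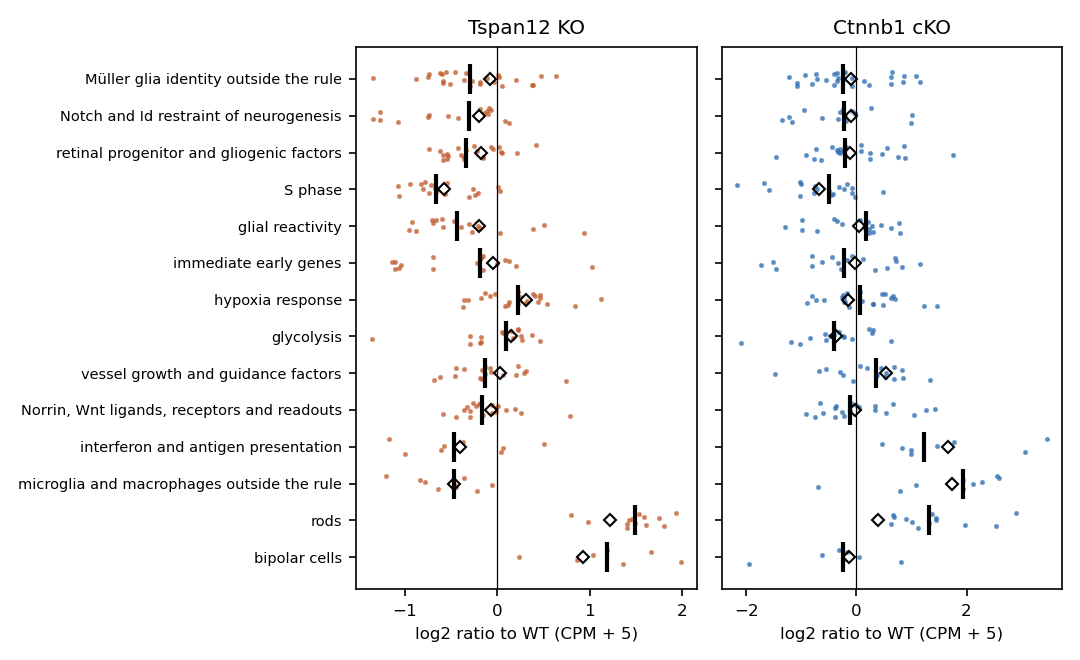
Log2 ratio to WT on CPM plus 5, 1 point per tested gene, for 14 gene lists in Müller glia of *Tspan12* KO (left) and *Ctnnb1* cKO (right), with bars at the list medians and diamonds at the medians in neuron-poor cells. Rods stand furthest right in *Tspan12* KO (median 1.48) and S phase furthest left (−0.67), and in *Ctnnb1* cKO microglia and macrophages (1.94), rods (1.32) and interferon genes (1.23) stand furthest right.

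Among genes lower in both mutants, those of the Y chromosome stood out besides *Id4*. *Uty* was at 91.1, 31.0 and 24.1 CPM, *Ddx3y* at 56.9, 21.7 and 17.2 and *Eif2s3y* at 101, 27.4 and 6.90, while *Xist*, the RNA of the inactive X, was at 311, 1143 and 593. The same genes differed in the same direction in rods, and the mix of sexes in the pools cannot be told apart from genotype. *Tagln*, a smooth muscle gene, was at 25.4 and 3.41 CPM in WT and *Tspan12* KO, and at 0 UMIs in *Ctnnb1* cKO, which by the same 3 UMIs allows up to 10.3 CPM. Its WT UMIs lay in 48 of 837 cells, 27.8% of them in the 5 highest. *S100a9*, a neutrophil gene, had 136 of its 156 WT UMIs in 1 cell.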

How the data were processed

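Each library held pooled P6 retinas of 1 genotype, captured with the Chromium Single Cell 3′ v3 kit. The deposited files hold raw UMI counts per gene and cell, which the authors made with Cell Ranger. The sources disagree on its version and on the genome build, so no coordinate was taken from the files, and the sequences shown come from RefSeq. Groups follow the genotype labels. The authors' cell annotation was not used here.

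Cells were chosen by the rule above, and the members and gene lists were chosen with earlier results of these data known. UMIs of the chosen cells were summed per library and scaled to CPM. CPM had exact Poisson, log2 ratios exact conditional binomial and shares Clopper-Pearson 95% intervals. List medians and counts past 2-fold used log2 of CPM plus 5 over genes with at least 50 UMIs. The main values kept all cells, with Scrublet (scanpy 1.11.5) scores read at 0.8% per 1000 barcodes as an alternative. Other alternatives were TMM scaling (edgeR 4.0.16, R 4.3.3), thinning each cell to 1000 UMIs, other limits on cells and genes, and a pseudocount of 1 CPM. Scripts ran in Python 3.11.15 (numpy 2.4.6, scipy 1.17.1). No test was run, since each group had 1 library. The scripts were tested on simulated counts with known changes.

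The text names the targeted genes, the 7 markers, members of the lists, the 8 genes with the largest ratios shared by both mutants and the 5 in each mutant alone in either direction, and the 15 genes furthest from rods and from dividing cells. Genes of the 3 splits of cells and of the 4 *Crhbp* cells were chosen after their values were seen. Some genes that this rule takes are not reported here.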

Additional observations from a re-analysis of the deposited data

How the results depend on the processing

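With 1 library per genotype, and 75 cells in *Ctnnb1* cKO, these values describe the libraries, and no alternative can show how mice of 1 genotype vary. Of the counts, list medians and shares under the alternatives, 236 values stayed within their counting interval, the order-statistic interval of their list or 1.5 times the count, and 47 moved. Of 9 list medians, 3 in *Tspan12* KO and 4 in *Ctnnb1* cKO took both signs over the alternatives, among them vessel growth and guidance (−0.16 to 0.12 and −0.04 to 0.62) and, in *Ctnnb1* cKO, hypoxia (−0.23 to 0.06). Of 52 named genes, 8 and 20 took both signs. In *Tspan12* KO, the 271 genes at least 2-fold higher became 408 with cells thinned to 1000 UMIs, 509 without the highest Scrublet scores, 153 with a marker sum of 40 and 5 markers, 114 without cells above 20 neuronal UMIs per 10000 and 503 at a pseudocount of 1 CPM, and the 65 lower became 193 when thinned, 37 without cells above 10000 UMIs and 173 at that pseudocount. In *Ctnnb1* cKO, the 628 higher became 1436 when thinned, 1453 at the stricter marker limit, 1020 at a pseudocount of 1 CPM, 356 with at least 200 UMIs a gene and 968 with no minimum, and the 1180 lower became 2979, 3485, 1958 and 764 under the first 4 of these, 1843 without cells above 50 neuronal UMIs per 10000 and 2125 without those above 20. List medians in *Tspan12* KO moved to 0.0408 for identity without cells above 10000 UMIs, −0.0563 for Notch and Id and 0.0326 for Norrin and Wnt without cells above 20 neuronal UMIs, −0.16 (thinned), −0.0398 (20 neuronal UMIs) and −0.12 (10000 UMIs) for reactivity, −0.93 for S phase at a pseudocount of 1 CPM, and 2.34 (Scrublet), 1.22 and 0.74 (50 and 20 neuronal UMIs) for rods. In *Ctnnb1* cKO they moved to −0.44 for Norrin and Wnt and −1.04 for S phase at the stricter marker limit, −0.43 for reactivity when thinned, and 2.31 (Scrublet), 0.39 and 0.27 (50 and 20 neuronal UMIs) for rods. The shares of Müller glia became 4.07%, 3.16% and 0.222% at the stricter marker limit and 1.46%, 1.74% and 0.209% when the rule read thinned cells. They became 9.54% in WT and 10.2% in *Tspan12* KO with at least 2000 UMIs per cell, 7.12% in *Tspan12* KO without the highest Scrublet scores, and 10.1%, 9.17% and 3.89% without endothelial and myeloid cells in the denominator. Of the named genes that took both signs, only 6, all in *Ctnnb1* cKO, were past 2-fold over all cells. *Ptprt* changed sign to −1.96 (stricter markers), −0.74 and −1.13 (50 and 20 neuronal UMIs) and −0.20 (10000 UMIs), and *Cnga1* to −1.05 (stricter markers). *Cdhr1* changed to −1.14 and −0.92 and *Rp1l1* to −0.87 and −0.65 (50 and 20 neuronal UMIs). *S100a9* changed to 0.77 (no cell cycle UMI), and *Pcp4* to −0.22 without the 4 *Crhbp* cells. *Hes5* in *Tspan12* KO ranged from −1.30 to −0.89 over the alternatives and *Id3* from −1.35 to −0.89, both lower in each. The limits of 20 neuronal and 10000 UMIs and the *Crhbp* limit were chosen after seeing the data. The cause of these moves was not tested. No paired analysis was possible because each genotype had 1 library and no test was run.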

Other observations

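Several functional groups of Müller glia gave values that stood near the background in *Tspan12* KO. Of 23 tested inner limiting membrane and adhesion genes none passed 2-fold (median −0.15), nor did any of 15 iron handling and ferroptosis defence genes (median −0.19) or of 8 retinoid genes (median −0.11), of which 1, *Crabp1*, was past 2-fold higher in neuron-poor cells. Of 12 genes for potassium, water, bicarbonate and proton handling 1, the sodium pump subunit gene *Atp1b2*, was at least 2-fold higher (median 0.04), and in neuron-poor cells none. Of 13 lipid and cholesterol transport genes 1, *Fabp7*, was at least 2-fold higher (median −0.26), and in neuron-poor cells none.

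In *Ctnnb1* cKO the matrix genes *Sparc*, an angiogenesis-associated matrix protein gene, and *Timp3*, an inhibitor of matrix proteases, were higher. In the order WT, *Tspan12* KO and *Ctnnb1* cKO, *Sparc* was at 469 CPM (452 to 485), 417 (404 to 430) and 759 (662 to 866), and at 639 without the 4 *Crhbp* cells (0.45, 0.22 to 0.67). *Timp3* was at 132, 115 and 241 CPM, and at 233 without those cells (0.82, 0.43 to 1.20). In rods *Sparc* was at 56.5, 72.0 and 265 CPM and *Timp3* at 7.33, 14.5 and 27.3, so both were higher in *Ctnnb1* cKO rods as well. The median mitochondrial share of the Müller glia was 2.21%, 1.70% and 0.334% in WT, *Tspan12* KO and *Ctnnb1* cKO.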
